A study of Mus musculus with 2 samples.

Results

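The 9 genes described here, Hhip, Ptch1, Gli1, Gli2, Gli3, Smo, Boc, Cdon and Gas1, encode core components of the Hedgehog signalling pathway. They were chosen by symbol, and all 9 were found once among the 32285 genes counted in the 2 single-cell libraries. Their levels are described across the cell clusters of mouse lung mesenchyme after saline or bleomycin.

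Hedgehog ligands are secreted proteins that bind the receptor Ptch1 and the co-receptors Boc, Cdon and Gas1. Without ligand, Ptch1 holds the membrane protein Smo inactive. Ligand binding releases Smo, which acts through the primary cilium to change the processing of the transcription factors Gli2 and Gli3, and Gli1, Ptch1 and Hhip are transcribed in response. Hhip, a surface protein that binds and sequesters ligand, and Ptch1 limit the pathway, and in the lung the ligands come mainly from epithelium while the responding cells are mesenchymal.

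Both libraries were made from 8- to 10-week-old Lepr-CreERT2;Rosa26-tdTomato mice, in which an inducible Cre recombinase driven from the leptin receptor locus switches on a red fluorescent reporter. Lung cells that carried tdTomato and lacked CD45, EpCAM and CD31, markers of leukocytes, epithelium and endothelium, were sorted and sequenced with a droplet method that counts the 3′ ends of RNA molecules. 1 library came from mice given saline and 1 from mice given bleomycin, a drug that injures the lung and is used to induce fibrosis. The sources used here do not give the number of mice per library, the bleomycin dose, the day of harvest or the timing of Cre induction, and a cell's membership rests on past reporter recombination rather than on current Lepr RNA. With 1 library per treatment no test between treatments was possible. All intervals below are exact 95% intervals that cover counting error only, and library and treatment cannot be told apart.

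The saline library held 8396 cell barcodes and the bleomycin library 10138, with medians of 6762 and 11662 unique molecular identifiers (UMIs, counted RNA molecules) per barcode, and 25 barcode sequences occurred in both. Clustering gave 13 clusters. 3 were set aside as not mesenchymal: cluster 8, led by the epithelial genes Scgb1a1 and Sftpc and also high in endothelial genes; cluster 9, mesothelial-like, led by Msln and Upk3b; and cluster 12, led by immunoglobulin genes. The other 10 held 8117 saline and 9626 bleomycin cells. Levels are given as CPM, the UMIs of a gene scaled to a total of 1000000 UMIs over the cells summed, with saline before bleomycin. Col1a1 stood at 962 and 3807 CPM in these cells, while Ptprc, Epcam and Pecam1, which encode the 3 gate proteins, lay between 0.0678 and 1.44 CPM.

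The 8 mesenchymal clusters with at least 50 cells in each library are compared below and are called by number and leading genes. Cluster 2 was alveolar fibroblast-like and led by Slc7a10, with 4163 saline and 155 bleomycin cells. Cluster 0, with 1681 and 119 cells, narrowly matched the alveolar fibroblast list, with 5 of 12 markers raised. It was led by Cxcl9, Rbp4 and AW112010, and its leading genes included the interferon-response genes Cxcl10, Ifit3 and Rsad2. At a finer resolution 90.2% of its cells fell in an alveolar fibroblast-like cluster also led by Cxcl9. Cluster 1 was adventitial fibroblast-like and led by Pi16, with 473 and 712 cells. Cluster 7, led by Aqp1, Adh7 and Lamc3, matched no marker list and held 770 and 514 cells. Cluster 3 was inflammatory fibroblast-like and led by Hp and Saa3, with 189 and 4375 cells. Cluster 6 was proliferating, with 51 and 568 cells, and also matched the fibrotic fibroblast list. Cluster 4 was smooth muscle-like and led by Myh11, with 362 and 531 cells, and also carried pericyte markers. Cluster 5, with 405 and 595 cells, was led by Cnn1, Aspn and Pappa2 and matched both the smooth muscle list and the list for peribronchial and ductal myofibroblasts. Clusters 10 (fibrotic fibroblast-like, led by Spp1 and Cthrc1) and 11 (led by Gdf15 and Mdm2, unnamed) held 7 and 16 saline cells against 1768 and 289 bleomycin cells and were not compared between libraries. Clusters were built from all variable genes, so a gene's difference between clusters is a description. The cell numbers of the clusters differed widely between libraries, and the level of a gene over all cells moves with them.

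Over all mesenchymal cells, Ptch1 was the member that differed most, with 95.3 CPM (92.8 to 97.8) after saline against 45.5 (44.4 to 46.7) after bleomycin, 2.09-fold lower. Hhip was at 144 and 83.9 CPM, Gli1 at 16.9 and 10.4 CPM, and Boc at 68.2 and 40.7 CPM, ratios of 0.584, 0.615 and 0.597. Gas1 stood at 91.2 and 63.2 CPM (ratio 0.693), Cdon at 13.9 and 11.2 CPM (0.806) and Gli2 at 10.4 and 9.25 CPM (0.890). Smo (23.9 and 27.5 CPM, ratio 1.15) and Gli3 (11.2 and 13.6 CPM, ratio 1.22) were the 2 members with a higher level in bleomycin, which for Gli3 turned when the clusters were weighted as in saline (0.808). Under that weighting the Gli2 ratio turned to 1.08. A size rule counted a gene as different when the libraries were 2-fold or more apart, the higher one reached 10 CPM and 1 was outside the ratio interval. By it 1 of 9 members, Ptch1, was lower, against 5.91% of the 8020 measured genes (10 CPM or more in 1 or both libraries), and 0 of 9 were higher, against 5.56% of these genes. The median log2 ratio of the members was -0.53, and that of the 8020 genes was -0.04.

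When the bleomycin clusters were weighted by the share of UMIs that each held in the saline library, the Ptch1 ratio was 0.690 and no member met the size rule. The ratios of Boc (0.823), Gas1 (0.961) and Gli1 (0.774) also came closer to 1, and Hhip, at 0.542, did not come closer. In this weighting cluster 2 of the bleomycin library, with 155 cells, stands for 46.8% of the total. With every cell given equal weight the Ptch1 ratio was 0.575, above the limit of 0.5.

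**Figure D1:**
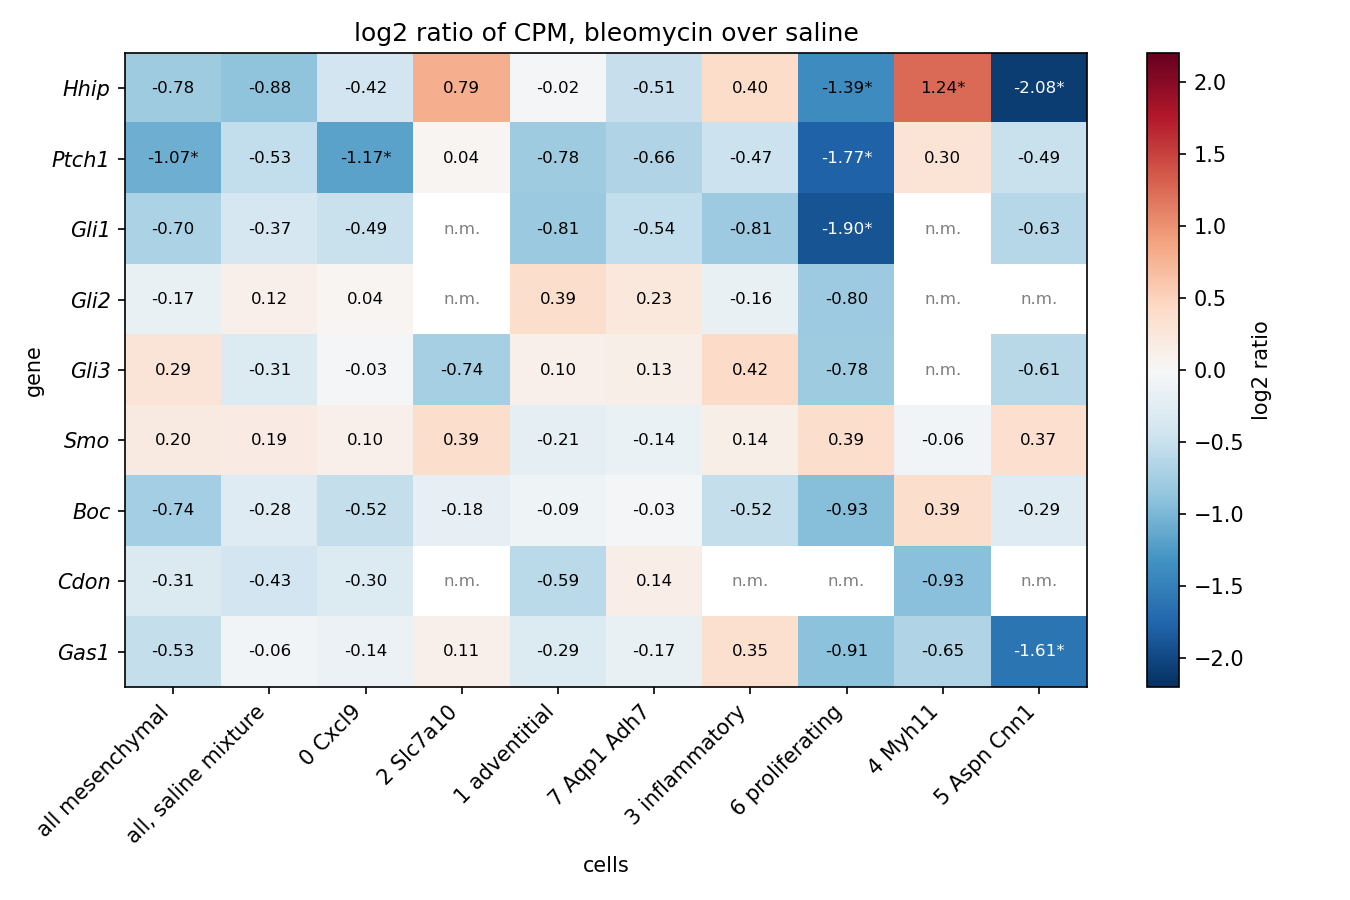
The log2 ratio of CPM, bleomycin over saline, for the 9 genes (rows) over all mesenchymal cells, with the bleomycin clusters weighted as in saline, and within 8 clusters (columns). An asterisk marks the size rule (not applied to the weighted column), and n.m. a gene under 10 CPM in both libraries. Hhip in cluster 5 has the lowest value, -2.08, and Hhip in cluster 4 the highest, 1.24.

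The ligand genes were nearly absent from the mesenchyme. Shh had 0 UMIs in saline and 3 in bleomycin among all mesenchymal cells, Ihh 13 and 7, and Dhh 13 and 12. Shh was counted in the epithelial gene-rich cluster 8, with 7 UMIs in saline (10.95 CPM, 4.40 to 22.6) and 16 in bleomycin (8.69 CPM, 4.97 to 14.1). That cluster held 107 and 188 cells that had passed an EpCAM-negative gate, so it is a remnant and no sample of the lung epithelium. Most Ihh UMIs of the saline library lay in cluster 4, at 3.16 CPM.

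Ptch1, the ligand receptor and itself a pathway target, lies on chromosome 13 (63508328 to 63573598, minus strand, GRCm38). Its level was highest in cluster 7, at 294 CPM (281 to 308) after saline and 186 (175 to 198) after bleomycin, followed by adventitial-like cluster 1 at 150 CPM (135 to 166) and 87.2 CPM (80.5 to 94.4). These 2 clusters led in both libraries with intervals clear of the next cluster. In saline, 32.5% of the mesenchymal Ptch1 UMIs came from cluster 7, which held 10.5% of all UMIs. The low end was smooth muscle-like cluster 4, at 27.0 and 33.2 CPM. The epithelial gene-rich cluster 8 carried 36.0 and 35.9 CPM of Ptch1, and at 2000 UMIs per cell 8.16% and 6.37% of its cells had a Ptch1 UMI. Those cells had medians of 5556 and 7361 UMIs. In cluster 4, with medians of 7295 and 8188 UMIs, the share was 4.78% and 5.17%, so its Ptch1 was not above the level in cluster 8. In cluster 5 the shares, 7.87% and 7.98%, were close to those in cluster 8, at 64.4 and 46.0 CPM. The 2 parts of cluster 5 that a finer clustering gave differed in Ptch1: the part led by Pappa2 and Aspn was at 20.3 and 36.9 CPM (ratio 1.82, 1.17 to 2.95) and the part led by Cnn1 and Tnnt2 at 158 and 78.4 CPM (0.498, 0.376 to 0.661).

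Within clusters, Ptch1 was lower in bleomycin in 6 of the 8. It was at 101 and 44.6 CPM in the Cxcl9-led cluster 0 (ratio 0.444, 0.329 to 0.586) and at 82.7 and 24.2 CPM in proliferating cluster 6 (ratio 0.292, 0.225 to 0.385), and both met the size rule. The ratio was 0.582 in cluster 1 (0.512 to 0.662), 0.632 in cluster 7 (0.585 to 0.683), 0.714 in cluster 5 and 0.720 in cluster 3. In alveolar-like cluster 2 the values of 54.2 and 55.6 CPM gave a ratio of 1.03 (0.760 to 1.36). Clusters 0 and 7, both above the overall Ptch1 level in saline, also held fewer cells in the bleomycin library. Cluster 2, below that level, held fewer cells too, and cluster 1, above it, held more. Clusters 3 and 10, at 47.6 and 19.7 CPM in bleomycin, held more cells there than in saline. The cluster 0 value rested on 51 bleomycin UMIs and did not keep the size rule when the clustering was changed: its ratio was 0.628 at the finer resolution and 0.760 with a stricter cell filter. Alternative clusterings placed the ratio in cluster 1 between 0.429 and 0.909.

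**Figure D2:**
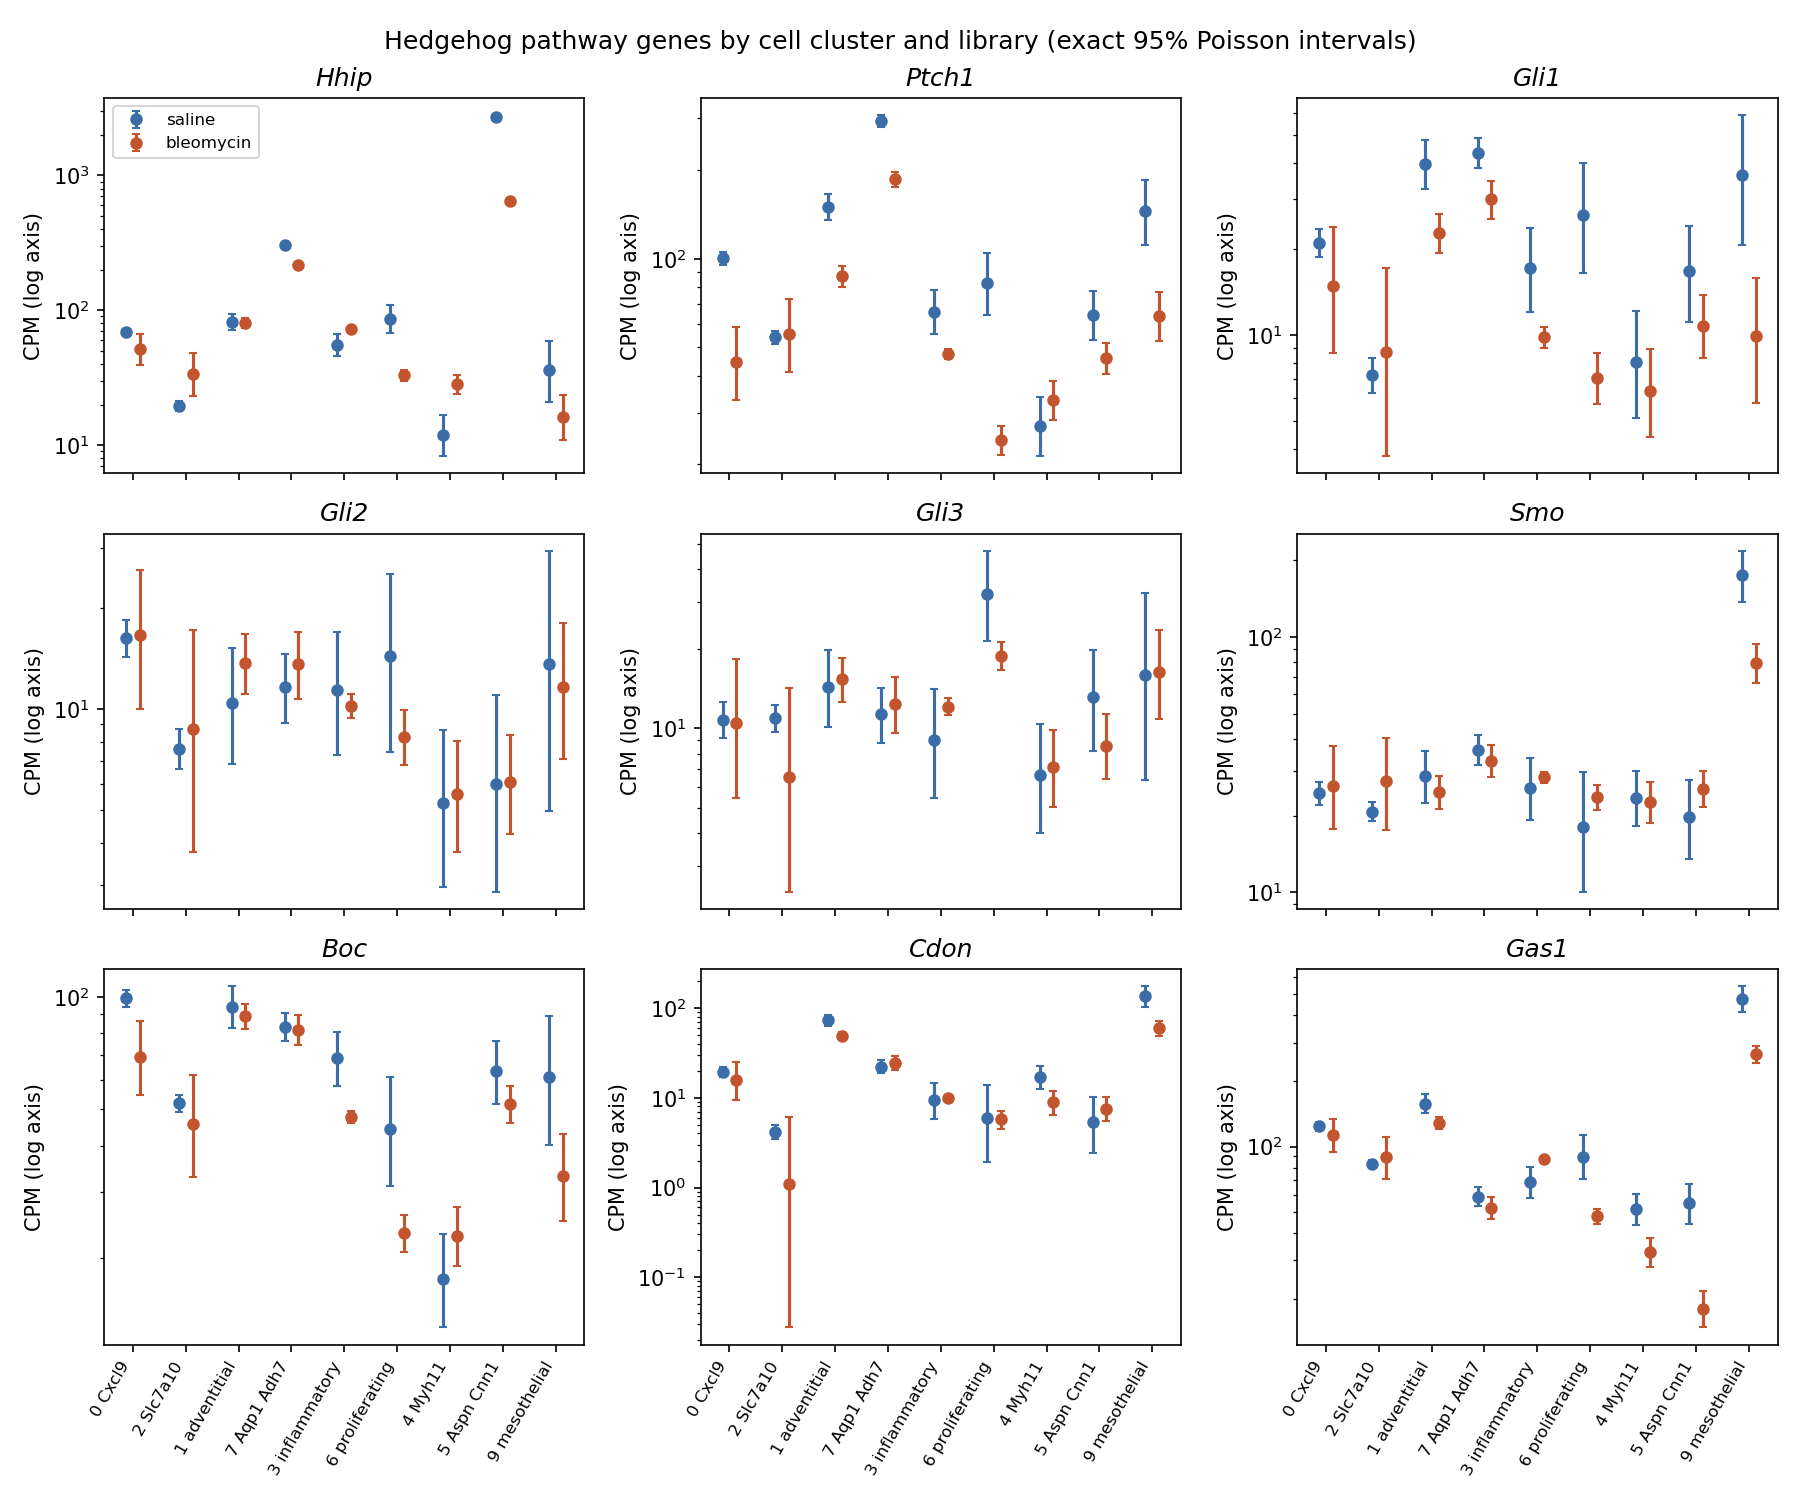
CPM of the 9 genes (log axis) in 9 clusters, with saline in blue and bleomycin in orange, and bars for the exact 95% Poisson interval of 1 library. Hhip stands highest in cluster 5, Ptch1 in cluster 7, and Gas1 and Smo in mesothelial-like cluster 9.

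Hhip, the ligand-binding antagonist, lies on chromosome 8 (79965851 to 80058006, minus strand) and was concentrated in cluster 5. There it was at 2724 CPM (2646 to 2804) in the saline library, 8.87-fold above the next cluster, and 53.9% of all mesenchymal Hhip UMIs came from this cluster, which held 2.84% of the UMIs of the library. In bleomycin cluster 5 was at 642 CPM (622 to 663), a ratio of 0.236 (0.226 to 0.246), or 4.24-fold lower. It was still the highest cluster of its library, 2.98-fold above the next, and held 34.9% of the Hhip UMIs. The second cluster was 7, at 307 CPM (294 to 321) and 216 CPM (204 to 228). Hhip was not detected in cluster 8 of the saline library and was at 15.8 CPM in bleomycin. At 2000 UMIs per cell it was found in 0 of 98 and 0 of 157 cells of that cluster, which at that depth allows shares of cells with a UMI of up to 3.06% and 1.91% (3 cells of the total). Without thinning, 4.79% of the bleomycin cells had one.

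Because Hhip is among the genes that define cluster 5, the clustering was repeated with the 9 members left out of the variable genes. The matching cluster held 408 saline and 592 bleomycin cells, and Hhip was at 2702 and 652 CPM, a ratio of 0.242. At the finer resolution cluster 5 divided in 2. The division led by Pappa2, Aspn and Fgf18 matched the peribronchial and ductal myofibroblast list, with 320 and 419 cells, and Hhip was at 3329 CPM after saline and 594 after bleomycin (ratio 0.178, 0.170 to 0.187). The division led by Cnn1 and Tnnt2 matched the smooth muscle list, with 84 and 184 cells, and Hhip was at 1468 and 707 CPM (ratio 0.482, 0.440 to 0.528). The difference between libraries was thus present in both divisions and larger in the Aspn-led one. In that division 2 of 11 smooth muscle genes were higher by the size rule. The share of all measured genes that were higher there is not given, so this count has no background. Among the cells of cluster 5 with an Aspn UMI at 2000 UMIs, a selection made after seeing the data, Hhip was at 2967 and 734 CPM in 275 and 381 cells.

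Counted per cell, Hhip UMIs in cluster 5 were also fewer in the bleomycin library. At 2000 UMIs per cell, 91.1% of saline cells (87.9 to 93.7) and 57.0% of bleomycin cells (52.9 to 61.1) had a Hhip UMI. Without thinning the shares were 96.5% and 82.9%, and the median depth of these cells was 3355 UMIs in saline and 8967 in bleomycin. The median cell of the Aspn-led division had 6 Hhip UMIs in saline and 1 in bleomycin at equal depth. Cells with 10 or more made up 26.4% (21.6 to 31.6) of the saline and 1.67% (0.676 to 3.42) of the bleomycin cells of that division, and cells with none 3.86% and 43.3%. In the Tnnt2-led division, 26.8% of saline cells (17.6 to 37.8) and 43.0% of bleomycin cells (35.7 to 50.6) had none, with overlapping intervals. In the bleomycin library the 2 divisions had nearly the same distribution, with 43.3% and 43.0% of cells at 0.

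**Figure D3:**
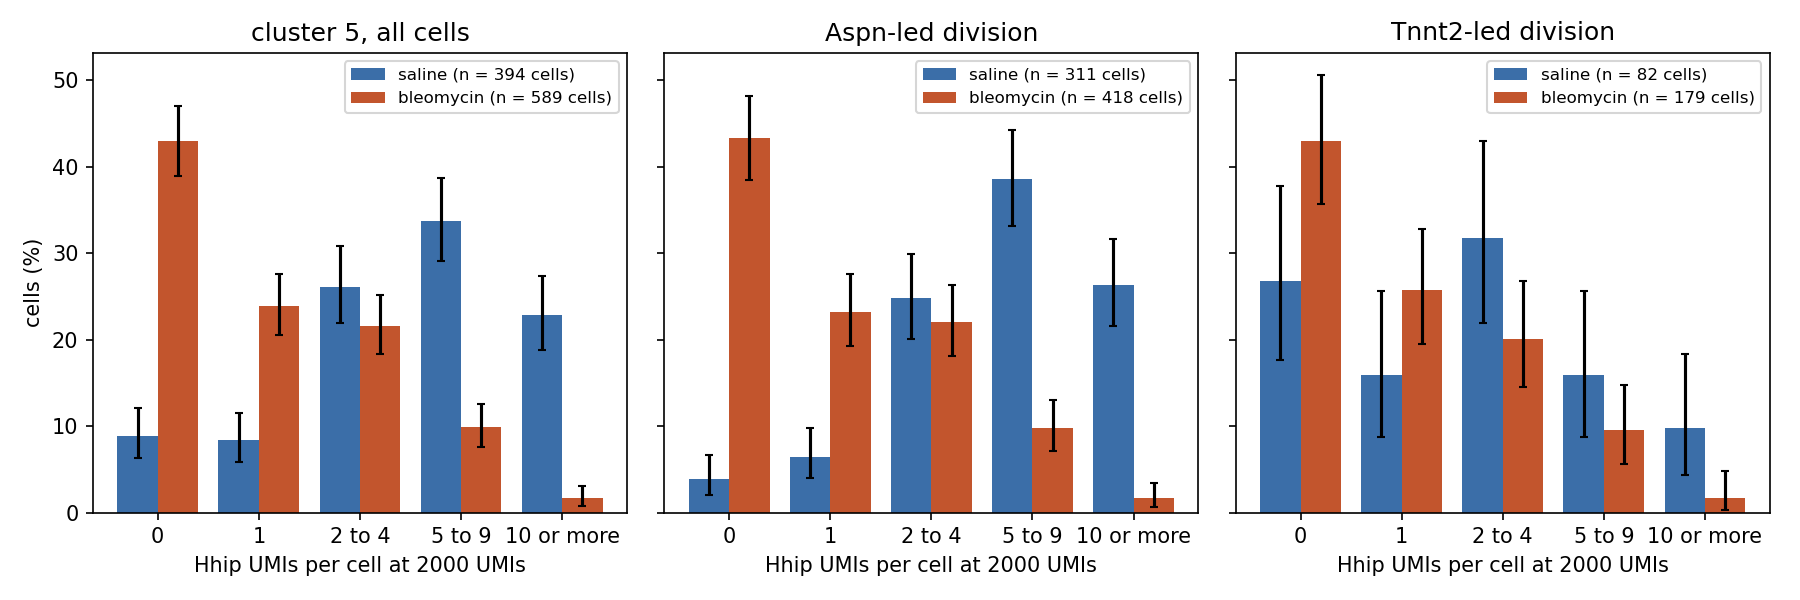
Percent of cells by number of Hhip UMIs after every cell was thinned to 2000 UMIs, in cluster 5 and in the 2 divisions it forms at the finer resolution, with exact 95% binomial intervals. Saline cells of the Aspn-led division are most often at 5 to 9 UMIs (38.6%), and bleomycin cells most often at 0 (43.3%).

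Other genes of cluster 5 did not all move with Hhip. Of the 10 genes of the peribronchial and ductal myofibroblast list, 9 were measured in cluster 5, and Enpp2 (1367 and 373 CPM, ratio 0.273) and Cdh4 (131 and 42.5 CPM, ratio 0.324) were lower by the size rule. Aspn itself, a secreted matrix protein, was at 1344 and 859 CPM (ratio 0.639), and Fgf18 was at 150 and 191 CPM (1.27) and Wnt5a at 214 and 228 CPM (1.07). Of the 11 smooth muscle genes, Actg2 was higher (682 and 1534 CPM, ratio 2.25) and 0 were lower. Among all measured genes in cluster 5, 6.69% were lower and 6.47% higher. The median log2 ratios of the 2 lists were 0.09 and 0.14. In the Aspn-led division they were -0.31 and 0.64: Cnn1 was at 16.8 and 148 CPM (ratio 8.86), Actg2 at 116 and 447 CPM (3.87) and the fibroblast receptor gene Pdgfra at 22.9 and 65.4 CPM (2.85). The part that a change in the cells drawn into cluster 5 has in the Hhip difference was not tested.

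Outside cluster 5, Hhip differed less and in both directions. It was at 86.3 and 32.9 CPM in proliferating cluster 6 (ratio 0.381) and at 307 and 216 CPM in cluster 7 (0.703), and at 81.5 and 80.2 CPM in adventitial-like cluster 1 (0.983, 0.838 to 1.16), where other clusterings and filters gave 0.760 to 1.80. It was at 55.7 and 73.2 CPM in inflammatory-like cluster 3 (1.32, 1.09 to 1.59) and at 19.5 and 33.8 CPM in alveolar-like cluster 2 (1.73, 1.17 to 2.49). The cluster 2 value rested on 31 bleomycin UMIs and met the size rule under other clusterings, at 2.28 with the members left out and 3.40 at the finer resolution. That finer match kept 66.5% of cluster 2. The other alveolar-like clusters of the finer resolution had 1.03 (led by Cxcl9), 1.30 (0.783 to 2.05, led by Inmt) and 2.45 (led by Ces1d). In smooth muscle-like cluster 4 it was higher by the size rule, at 11.9 and 28.2 CPM (2.36, 1.61 to 3.53). That value rested on few cells: 10 of 362 saline and 39 of 531 bleomycin cells had a Hhip UMI, and 74.7% of the 146 bleomycin UMIs lay in cells among the 5% with the highest doublet scores of their library. Without those cells the matching cluster had a ratio of 0.490. Cluster 3 supplied 38.2% of the Hhip UMIs of the bleomycin library, against 1.38% in saline, and held 43.8% and 3.56% of all UMIs.

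**Figure D4:**
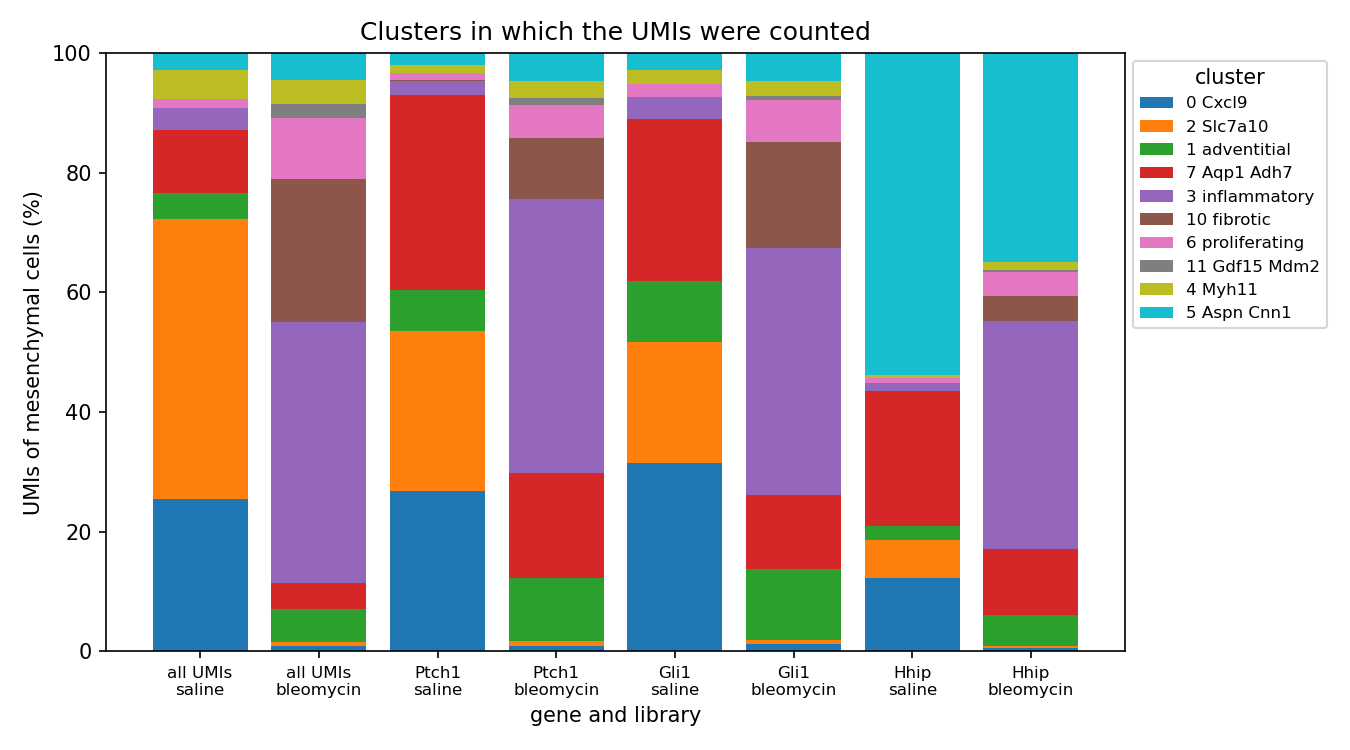
Share of mesenchymal UMIs counted in each cluster, for all genes together and for Ptch1, Gli1 and Hhip, in each library. Cluster 5 holds 53.9% of the Hhip UMIs in saline and 34.9% in bleomycin, and cluster 3 rises from 3.56% to 43.8% of all UMIs.

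The promoters of the 2 members with the largest differences are shown because both genes are known transcriptional targets of the pathway. Of the 9 members, 7 had a window in the RefSeq table (GRCm38.p6, 250 bases before to 50 after the RefSeq gene start); Gli1 and Boc had none. The Hhip window is chr8:80057959-80058258 and the Ptch1 window chr13:63565686-63565985, both on the minus strand and printed 5′ to 3′ with each CG dinucleotide in capitals. The Ptch1 window lies at the RefSeq start, inside the longer gene model given above.
Hhip: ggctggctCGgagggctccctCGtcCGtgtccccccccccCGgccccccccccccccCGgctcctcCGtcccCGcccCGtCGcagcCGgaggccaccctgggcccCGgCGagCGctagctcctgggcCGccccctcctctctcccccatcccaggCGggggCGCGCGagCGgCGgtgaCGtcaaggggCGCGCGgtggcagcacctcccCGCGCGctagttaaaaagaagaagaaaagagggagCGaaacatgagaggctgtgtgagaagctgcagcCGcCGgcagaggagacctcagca
Ptch1: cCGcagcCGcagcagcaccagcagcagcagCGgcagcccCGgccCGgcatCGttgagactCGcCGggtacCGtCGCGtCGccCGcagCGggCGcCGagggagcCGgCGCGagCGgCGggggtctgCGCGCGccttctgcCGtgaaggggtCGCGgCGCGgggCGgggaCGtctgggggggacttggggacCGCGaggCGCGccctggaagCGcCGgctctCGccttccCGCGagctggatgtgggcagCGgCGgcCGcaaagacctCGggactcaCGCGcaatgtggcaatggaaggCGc
Both are rich in CG dinucleotides, with 30 in Hhip and 47 in Ptch1, against a median of 7 over 32851 windows of the same length. The Gli binding motif GACCACCCA was in none of the 7 member windows on either strand and in 0.253% of all windows, which says only that these letters are not in these 300 bases.

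The 3 co-receptors had different patterns. Boc, an immunoglobulin-family membrane protein on chromosome 16 (44485049 to 44558897), was spread over the fibroblast-like clusters and low in smooth muscle-like cluster 4. It was at 99.3 CPM in cluster 0, 94.3 in cluster 1 and 83.3 in cluster 7 of the saline library, with overlapping intervals, and at 17.6 CPM in cluster 4. In clusters 1 and 7 its ratios were 0.941 (0.811 to 1.10) and 0.980 (0.862 to 1.11). In clusters 0 and 3 they were 0.696 (0.548 to 0.873) and 0.697 (0.590 to 0.830).

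Cdon, a membrane protein related to Boc and encoded on chromosome 9 (35421128 to 35507652), was more restricted. Among the 8 compared clusters it was highest in adventitial-like cluster 1, at 73.4 CPM (63.4 to 84.6) after saline and 48.8 (43.7 to 54.2) after bleomycin, a ratio of 0.664. That was 3.30-fold and 1.99-fold above cluster 7, the next. Alveolar-like cluster 2 was lowest, at 4.20 and 1.09 CPM, the latter from 1 UMI. Cluster 1 held 23.3% of the mesenchymal Cdon UMIs in saline with 4.39% of all UMIs.

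Gas1, a membrane-anchored co-receptor encoded on chromosome 13 (60174405 to 60177365), was highest in cluster 1 among the mesenchymal clusters, at 157 and 128 CPM (ratio 0.816). It met the size rule in cluster 5, at 54.9 CPM (44.2 to 67.3) after saline and 18.0 (14.8 to 21.8) after bleomycin, a ratio of 0.328 (0.246 to 0.439). Both divisions of cluster 5 showed it, with 37.9 and 15.5 CPM in the Aspn-led and 90.8 and 30.1 CPM in the Tnnt2-led one. In inflammatory-like cluster 3 Gas1 was at 68.5 and 87.6 CPM (1.28, 1.08 to 1.52), but with the members left out of the clustering the matching cluster had 99.8 and 89.4 CPM (0.896), so the direction turned.

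Mesothelial-like cluster 9, with 42 saline and 117 bleomycin cells, carried the highest Gas1, Smo and Cdon levels of any cluster with at least 20 cells in a library. Gas1 was at 475 CPM (413 to 544) after saline and 265 (241 to 290) after bleomycin, Smo at 174 and 79.1 CPM, and Cdon at 136 and 59.3 CPM. Ptch1 was at 145 and 64.0 CPM and Gli1 at 36.2 and 9.89 CPM there. All 5 were lower in the bleomycin library, but the 42 saline cells are below the 50 set for a comparison.

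Smo, the signal transducer on chromosome 6 (29735503 to 29761365), was the most even member. Across the 8 compared clusters it lay between 18.0 and 36.2 CPM in saline and between 22.6 and 32.9 CPM in bleomycin, and the intervals of all 7 pairs of neighbours in the order overlapped in each library. Cluster 7 was highest in both. Its ratios ran from 0.862 in cluster 1 to 1.31 in clusters 2 and 6.

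Gli1, the transcription factor whose RNA is a common readout of Hedgehog activity, lies on chromosome 10 (127329882 to 127341974). Its order followed that of Ptch1 at the top, with cluster 7 at 43.3 CPM (38.3 to 48.8) after saline and 29.8 (25.5 to 34.7) after bleomycin and cluster 1 at 39.8 and 22.7 CPM. Clusters 2 and 4 were lowest in saline, at 7.24 and 8.07 CPM. The ratio was 0.688 (0.564 to 0.838) in cluster 7, 0.570 (0.442 to 0.737) in cluster 1 and 0.572 (0.408 to 0.826) in cluster 3. In proliferating cluster 6 it met the size rule, at 26.4 and 7.07 CPM (0.268, 0.167 to 0.448), from 22 and 95 UMIs. In cluster 5, where Hhip was highest, Gli1 was at 16.7 and 10.8 CPM (0.646, 0.408 to 1.05).

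Gli2 and Gli3, the factors whose processing the pathway controls, were low. Over all mesenchymal cells they differed little between libraries, with ratios of 0.890 and 1.22. Gli2, on chromosome 1 (118834132 to 119053619), lay between 5.27 and 16.2 CPM in saline and was highest in cluster 0 of both libraries, with all neighbours in the order overlapping. Gli3, on chromosome 13 (15463235 to 15730026), was highest in proliferating cluster 6, at 32.3 CPM (21.3 to 47.1) and 18.8 CPM (16.6 to 21.3). The ratio there was 0.582 (0.391 to 0.900). In the other 7 compared clusters Gli3 lay between 6.54 and 15.4 CPM. Neither met the size rule in any of the 8 clusters.

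Counted by cluster, few members met the size rule. In cluster 5, Hhip and Gas1 were lower, 2 of 7 measured members against 6.69% of the measured genes, and 0 were higher against 6.47%. In cluster 6, Hhip, Ptch1 and Gli1 were lower, 3 of 8 measured members against 8.52% of genes (higher: 0 against 3.79%), with 51 saline cells behind these values. The part that a change in the cells drawn into cluster 6 has in these values was not tested. In cluster 0 Ptch1 was lower, 1 of 9 measured members against 2.39% (higher: 0 against 3.85%). In cluster 4 Hhip was higher, 1 of 6 measured members against 4.35% (lower: 0 against 2.51%). No member met the rule in cluster 1, where 3.65% of genes were lower and 4.27% higher, or in cluster 7, where 3.47% were lower and 2.99% higher. None met it in cluster 2 (1.52% lower, 1.79% higher) or cluster 3 (1.97% lower, 2.96% higher) either. Other clusterings or cell filters brought members past the rule in the matching clusters: Hhip in cluster 2 (2.28 to 3.81), Ptch1 in clusters 1 (0.429) and 7 (0.469 and 0.497), Gli1 (0.494) and Gli3 (2.26) in cluster 3, Cdon in cluster 4 (0.467) and Boc in cluster 6 (0.450). The number of members measured ran from 6 in clusters 2 and 4 to 9 in clusters 0, 1 and 7.

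Fibrotic-like cluster 10 was found almost only in the bleomycin library and was lower than inflammatory-like cluster 3 in 7 of the members. Against inflammatory-like cluster 3 of the same library, it had 14.4 CPM of Hhip (13.1 to 15.8) where cluster 3 had 73.2 (71.0 to 75.5), and 19.7 CPM of Ptch1 (18.2 to 21.4) where cluster 3 had 47.6 (45.8 to 49.4). Boc was at 18.4 and 47.8 CPM, Gas1 at 25.8 and 87.6 CPM and Cdon at 6.53 and 9.86 CPM in clusters 10 and 3. Gli1 was at 7.76 and 9.80 CPM and Gli2 at 7.43 and 10.2 CPM, each with intervals that did not overlap. Smo was at 29.5 and 28.3 CPM and Gli3, at 16.3 and 12.1 CPM, was higher in cluster 10. The Ptch1 and Hhip levels of cluster 10 were at or below those of the epithelial gene-rich cluster 8 of that library, 35.9 and 15.8 CPM. Low levels were not particular to cluster 10. Bleomycin cluster 11 was at 14.8 CPM of Hhip, 23.2 of Ptch1, 21.9 of Boc, 34.0 of Gas1 and 7.06 of Cdon. Its Gli1 and Gli2 levels, 3.03 and 5.38 CPM, were below those of cluster 10. Proliferating cluster 6 was at 7.07 CPM of Gli1 and 5.73 of Cdon in bleomycin.

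Over all mesenchymal cells, those with a Gli1 UMI had a UMI of the targets Ptch1 and Hhip more often than those without, and this varied between clusters. At 2000 UMIs per cell, 23.7% of the 241 saline cells with a Gli1 UMI and 13.5% of the others had a Ptch1 UMI, and in bleomycin 18.3% of 213 and 8.30% of the others. For Hhip the shares were 22.4% and 12.5% in saline, and 20.7% and 12.8% in bleomycin. For Smo, which is not one of these targets, they were 7.88% and 4.36% in saline, and 3.29% and 5.38% in bleomycin. At 4000 UMIs per cell the Smo shares were 9.51% and 8.81% in saline, and 13.4% and 10.9% in bleomycin. In cluster 3 of the bleomycin library the Ptch1 shares were 21.4% (13.8 to 30.9) of 98 Gli1 cells and 8.27% (7.46 to 9.14) of the others. In cluster 7 they were 40.9% of 66 and 38.7% in saline, and 35.7% of 28 and 28.1% in bleomycin, with overlapping intervals. In cluster 1 they were 6 of 30 and 22.2% in saline, and 10.7% of 28 and 14.2% in bleomycin. At 4000 UMIs per cell the saline shares there were 42.0% of 50 and 34.4%, with overlapping intervals. The bleomycin shares there were then 42.9% of 56 (29.7 to 56.8) and 22.1% (18.6 to 25.9). In cluster 5 all 12 saline cells with Gli1 and 90.8% of those without it had Hhip, and in bleomycin 58.3% of 12 and 57.0%. The Hhip shares in cluster 7 were 34.8% of 66 and 36.6% in saline, and 42.9% of 28 and 28.3% in bleomycin, with overlapping intervals. At 4000 UMIs per cell they were 53.4% of 116 and 50.6% in saline, and 43.3% of 60 and 43.6% in bleomycin.

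Of the other Hedgehog genes, 2 of the 8 ligand and ligand-release genes were measured. Scube1, a secreted factor of the family that aids ligand release, was higher (5.94 and 36.8 CPM, ratio 6.21) and its relative Scube2 lower (111 and 40.8 CPM, ratio 0.366). Scube2 belonged to alveolar-like cluster 2, where it was at 194 and 171 CPM, and with the saline mixture of clusters its ratio was 0.970. Scube1 stayed higher with that mixture, at 2.59. None of the 12 measured of 19 signal transduction genes met the rule. Their median log2 ratio was 0.08, and they ranged from Evc, a ciliary protein (14.6 and 11.02 CPM, ratio 0.754), to Sufu, which holds Gli factors in check (8.21 and 11.2 CPM, ratio 1.37).

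Of 12 other genes known as Hedgehog targets in mesenchyme, 10 were measured, 2 higher (5.56% over all measured genes) and 1 lower (5.91%). Sfrp1, a secreted Wnt antagonist, was higher (68.2 and 594 CPM, ratio 8.71), as was the cell cycle gene Ccnd1 (16.4 CPM in saline, ratio 3.05), and the growth factor Bmp4 was lower (94.95 and 45.9 CPM, ratio 0.483). The other 7 met neither direction, and the median log2 ratio was 0.03 against -0.04 over all measured genes. With the saline mixture Sfrp1 remained higher (4.42), while Ccnd1 (1.19) and Bmp4 (0.809) did not meet the rule. Of 17 primary cilium genes 7 were measured. Arl13b, a ciliary membrane GTPase, was lower (116 and 52.4 CPM, ratio 0.451; 0.678 with the saline mixture), and the highest ratio, 1.28, was that of Ift52, an intraflagellar transport protein.

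**Figure D5:**
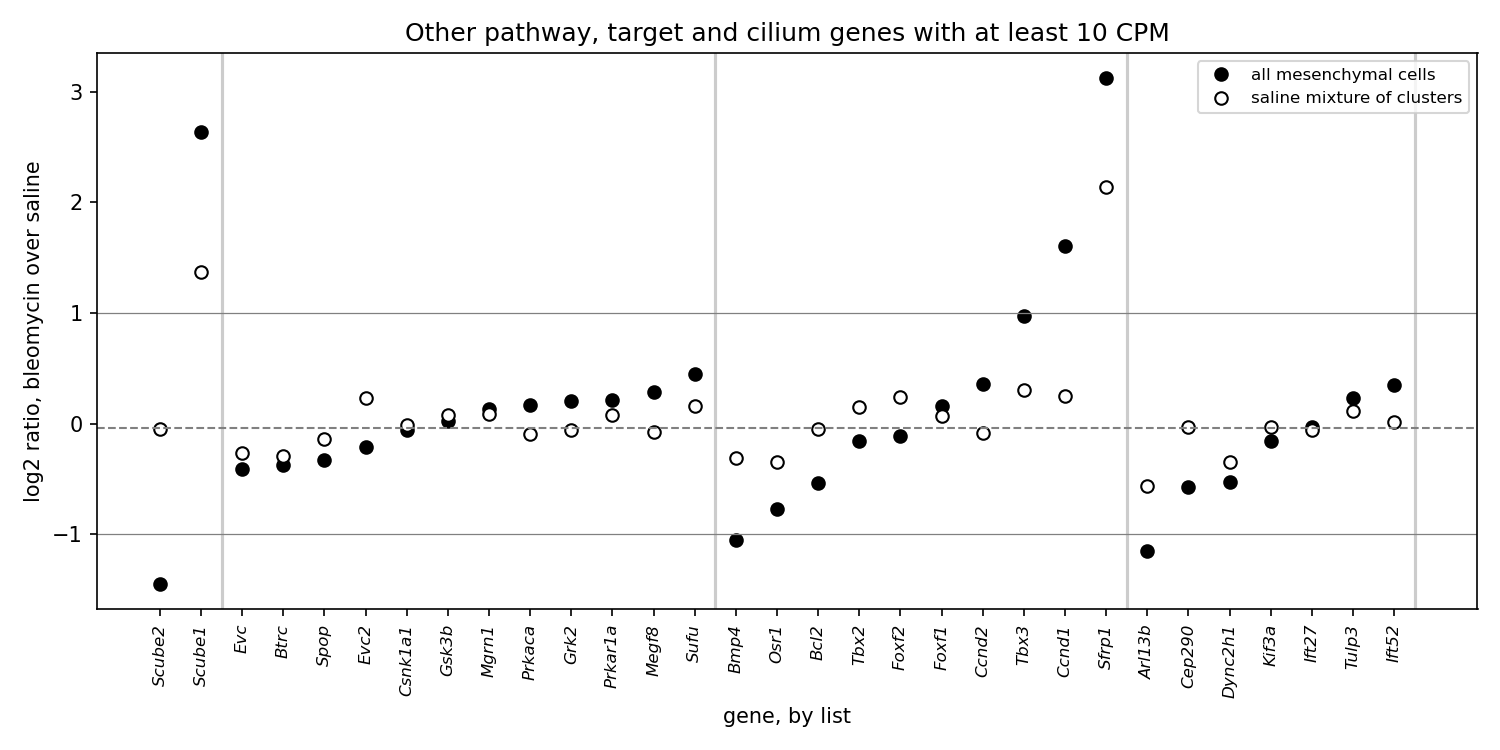
The log2 ratio, bleomycin over saline, of the other pathway, target and cilium genes with at least 10 CPM, over all mesenchymal cells (filled) and with the bleomycin clusters weighted as in saline (open). The dashed line is the median of all 8020 genes, -0.04, and thin lines mark 2-fold. Sfrp1 and Scube1 stay above 2-fold in both, while Scube2, Bmp4, Ccnd1 and Arl13b do not.

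The genes whose levels ran most alike were sought by Pearson correlation of log2(CPM + 1) over 18 cluster-by-library sums, which share libraries and depth, among 10192 genes. Closest to Hhip were Rims1 (r = 0.92), Foxf1 (0.85), Fendrr (0.85), Cyp2e1 (0.84) and Cacna2d3 (0.81). Foxf1 is a transcription factor gene of lung mesenchyme and Fendrr the non-coding RNA gene beside it. Closest to Gli1 were Nfix (0.91), Rbp4 (0.89), Tpst1 (0.87) and Col14a1 (0.87), and closest to Ptch1 were Rbp4 (0.91), Cntn4 (0.91), Tpst1 (0.90), Epha5 (0.88) and Pard3b (0.88). Rbp4 and Tpst1 occurred in both of the latter lists and none of the 5 closest to Hhip did.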

How the data were processed

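Per the labels, cells were profiled with the 10x Genomics 3′ method, and the authors deposited whole-number UMI counts per gene and barcode for each library, made with Cell Ranger 6.1.2 and mm10 per the submitters' processing notes. Barcodes with at least 500 genes and at most 10% mitochondrial UMIs were kept (8350 of 8396 saline, 10001 of 10138 bleomycin). Scrublet, run per library at an expected rate of 7%, marked 66 saline cells, which were removed, and 0 bleomycin cells, so it did not work there. Clusters came from scanpy 1.11.5 (2000 variable genes, 30 components, 15 neighbours, Leiden resolution 0.5) and were named "like" a type only from marker lists. UMIs were summed per cluster and library and given as CPM with exact Poisson intervals. Ratios carry conditional binomial intervals and shares Clopper-Pearson intervals. Shares use cells thinned to 2000 UMIs, and 144 saline and 153 bleomycin mesenchymal cells below that depth were left out. The genes named are the 9 members, each list's genes that met the size rule with its extremes, the 3 ligands and the 5 genes most like Hhip, Gli1 and Ptch1; the marker and other genes named beside them were chosen after their values were seen. The size rule was tried on simulated Poisson counts at the summed depth of each library. That trial does not show how the rule behaves in small clusters or between repeated libraries. Gene positions are from GENCODE M21. The members and lists were chosen with earlier results of these data known. 2 genes that these rules name are not reported here. Alternatives are in the closing section.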

Additional observations from a re-analysis of the deposited data

Results flagged for a closer look

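Hhip differed between the libraries in opposite directions in different clusters. Its ratio, bleomycin over saline, was 0.236 in the Aspn and Cnn1 cluster 5 and 0.381 in proliferating cluster 6, and 2.36 in the Myh11-led cluster 4, each by the size rule. The difference between these clusters was not tested, since each rests on 1 library per treatment. In cluster 4, 74.7% of the bleomycin Hhip UMIs lay in cells with high doublet scores, and 41.8% lay in 5 cells. Without the high-score cells the matching cluster had a ratio of 0.490, so the opposite direction was not kept. In saline 29 of the 34 UMIs (85.3%) lay in 5 cells.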

How the results depend on the processing

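Over all mesenchymal cells, 76 of 81 alternative ratios of the 9 members stayed on their side of the size rule, and no called ratio changed direction. Only Ptch1 met the rule in the main setting, so most of these are genes that stayed uncalled. Dropping the CPM minimum could change no call, since all 9 members were already measured. Ptch1 no longer met the rule with the mean over cells (0.575) or the saline mixture (0.690), so the number of lower members was 0 under both. With a 1.5-fold limit it was 4, with Hhip (0.584), Gli1 (0.615) and Boc (0.597) added. The share of all measured genes lower at that limit is not given here, so this count has no background. The Hhip ratio in the cluster matching cluster 5 lay between 0.178 and 0.250 in the alternatives run; at resolution 1 that match holds 72.7% of the cluster, and the other division had 0.482. Within clusters, 335 of 351 alternative ratios kept their side. 10 newly met the rule, 5 no longer did, and 1 reversed, Hhip in cluster 4 without the 5% highest doublet scores (0.490). Few ratios met the rule in the main clusters, so most that kept their side are genes that stayed uncalled. The losses and the reversal fell on those few called ratios. An uncalled ratio could also turn in direction and still keep its side, as that of Gas1 in cluster 3 did. With the saline mixture the number of lower genes became 0 among ligand and release genes, targets and cilium genes, and higher targets became 1. With a 5 CPM minimum 2 cilium genes were lower. Alternatives for cluster 3 at resolution 1 and cluster 6 with the stricter filter were not run because a matching cluster held fewer than 50 saline cells. No paired analysis was possible because each treatment has 1 library. Depth limits Gli1, Gli2, Gli3 and Cdon, each with a compared cluster value that rests on fewer than 10 UMIs.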
